A study of Mus musculus with 12 samples.

Results

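The expression of 37 genes of synaptic vesicle release and recycling was examined in mouse somatosensory cortex. The genes were taken from a fixed list of symbols, and the counts of all transcripts with the same symbol were summed. All 37 were found, as 64 of the 35840 transcripts and 37 of the 24452 gene symbols in the data.

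RNA was measured by stranded RNA-Seq in 12 libraries, 3 in each of 4 groups. All mice were males of a C57BL/6 background on postnatal day 7. They were WT or p53 KO mice that had received intraperitoneal saline or ethanol (EtOH), and tissue was taken 8 h after the last injection. The p53 KO mice carry a targeted disruption of Trp53, the gene of the tumor suppressor p53, and both genotypes were offspring of heterozygous parents. The groups are called WT saline, WT ethanol, KO saline and KO ethanol, and replicate numbers within a group only name libraries.

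A neuron fills synaptic vesicles with transmitter by vesicular transporters and tethers them with synapsins. It docks and primes them at a protein scaffold called the active zone. SNARE proteins on the vesicle and the plasma membrane then fuse the vesicle when synaptotagmin binds calcium, and NSF with its SNAP adaptors takes the SNARE complex apart again. The vesicle membrane is retrieved by endocytosis, in which endophilins (the Sh3gl genes), amphiphysins, dynamin and synaptojanin act. In the cortex of the first postnatal week, synapses are being formed and many of these genes are on their way to adult levels.

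The libraries differed in depth and in kind. The total count was 1953154 to 15719626 in WT saline, 5060577 to 15387284 in WT ethanol, 10143487 to 17066392 in KO saline and 719735 to 13119826 in KO ethanol libraries. The 37 genes together took 0.409%, 0.868% and 1.12% of the counts of the WT saline libraries and between 0.939% and 1.20% in the other 9. The mean transcript length, weighted by count, was 2242 to 3312 bases in WT saline, 3352 to 3812 in WT ethanol, 3647 to 3734 in KO saline and 2603 to 3652 in KO ethanol libraries. Trp53 did not check the knockout labels, since its summed level was 3.67 to 26.2 CPM in WT libraries and 11.1 to 28.7 in KO libraries. The share of Trp53 counts given to the RefSeq transcript NM_001127233 was 7.01% to 23.1% in the 6 WT libraries, 48.3% to 70.6% in 5 KO libraries and 7.01% in the library labelled KO ethanol replicate 1, which held 14.0 Trp53 counts and is called by its label throughout. CPM here and below is the count relative to the library size, in the usual scaling, with the TMM factors of edgeR.

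WT ethanol replicate 1 stood apart in tissue markers. Its 6 cortical neuron markers summed to 167 CPM, compared with 531 to 1219 in the other 11 libraries, and its 5 thalamus markers summed to 712 CPM, compared with 39.1 to 108. Gbx2, a thalamic transcription factor, was at 71.7 CPM there and at most at 1.05 in the others. The summed level of 9 pan-neuronal markers was 8838 to 9975 CPM in WT saline, 5832 to 8362 in WT ethanol, 6762 to 9140 in KO saline and 5553 to 13072 in KO ethanol libraries. Within this list Nefl was at 40.4 to 108 CPM in WT saline and 148 to 234 in KO saline libraries, and Nefm at 15.6 to 68.9 and 87.1 to 138. Tubb3 went the other way, at 2823 to 4693 CPM in WT saline and 1269 to 1415 in KO saline libraries. Rbfox3, Map2, Stmn2, Elavl3, Elavl4 and Gap43 overlapped between these groups. The interneuron marker Gad1 was at 74.0 to 94.99 CPM in WT saline and 141 to 172 in WT ethanol libraries, and Gad2 at 21.2 to 60.2 and 104 to 115, both without overlap. The other listed interneuron markers overlapped between these groups. From WT saline to WT ethanol the mean CPM of Dlx1 went from 31.0 to 52.9 and of Dlx5 from 3.90 to 3.04. That of Lhx6 went from 28.3 to 23.0 and of Sst from 136 to 124. The 4 striatum markers summed to 55.1 to 86.7 CPM in WT saline and to 43.0, 607 and 277 in WT ethanol libraries, and 3 of the 4 had an unadjusted p under 0.05 between these groups. Choroid plexus markers were at 3.60 to 119 CPM in WT saline, 22.1 to 4999 in WT ethanol, 27.1 to 2252 in KO saline and 0 to 2209 in KO ethanol libraries, and the part of all these markers in the results below, those for Rims1, Napb and Sv2c included, was not tested. In whole tissue, fewer neurons and less RNA per neuron cannot be told apart.

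Levels between genes were compared only as RPKM, which is per length. Syp, which encodes the abundant vesicle membrane protein synaptophysin, had the highest mean at 392 RPKM, with a range of 99.0 to 694 over the 12 libraries. Vamp2, the main vesicle SNARE, followed at 342 RPKM (140 to 506), and Snap25, a SNARE of the plasma membrane, at 288 RPKM (90.7 to 406). The ranges of the 3 overlapped over most of their length, so that this order does not exceed the spread between libraries. The lowest means were 1.19 RPKM for Sv2c (0.354 to 1.99), 6.41 for Syn3 (2.62 to 11.6) and 6.90 for Vamp1 (2.11 to 15.9). Sv2c, the minor member of a family of vesicle glycoproteins, had the lowest mean, and its highest library lay below the lowest library of each other gene except Bsn (1.94). The 10 SNARE and disassembly genes held 32.6% of the summed RPKM of the 37, the 8 vesicle proteins 29.9%, the 5 synaptotagmins and complexins 19.0%, the 7 endocytosis genes 12.0%, the 2 vesicular glutamate transporters 4.51% and the 5 active zone genes 1.90%.

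**Figure D1:**
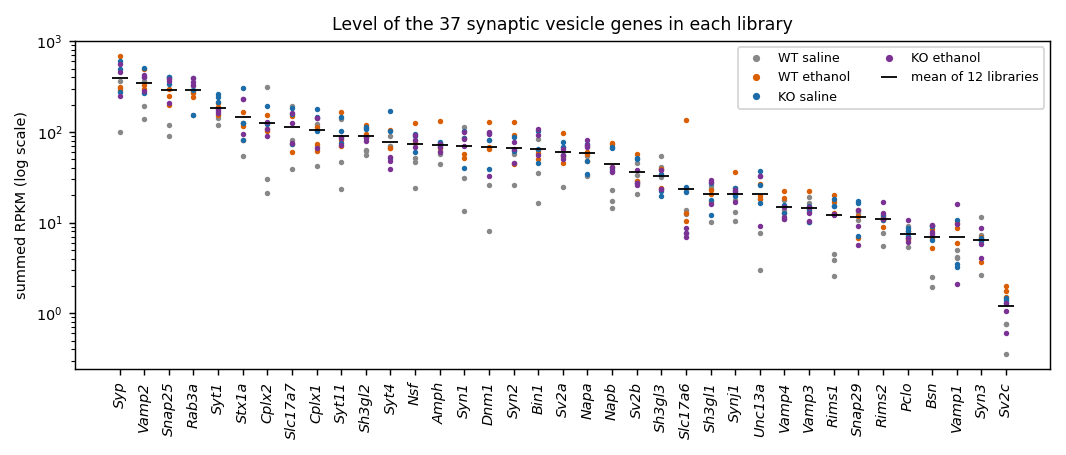
Summed RPKM (log scale) of the 37 synaptic vesicle genes in each of 12 libraries, ordered by their mean, with 1 point per library coloured by group and a bar at the mean. Means run from 392 for Syp to 1.19 for Sv2c, and the points of neighbouring genes overlap.

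Spread over libraries differed between genes. The coefficient of variation of CPM over all 12 libraries was lowest for Syt1 (17.6%), Amph (17.6%) and Pclo (18.0%) and highest for Slc17a6 (117%), Vamp1 (65.3%) and Cplx2 (63.2%). Some genes were uneven among the WT saline libraries. Cplx2, a complexin that clamps and assists SNARE fusion, was at 1697 CPM in WT saline replicate 1 and at 146 and 201 in replicates 2 and 3, compared with 412 to 868 in the other 9 libraries. Syn1, a synapsin that tethers vesicles, was at 428, 44.6 and 122 CPM in the same libraries, and Dnm1, the neuronal dynamin, at 358, 25.7 and 102. In each of these genes WT saline replicate 2 held the lowest value of the 12, while replicate 1 held the highest or, for Dnm1, the second highest.

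Rims1, Napb and Sv2c were low in all 3 WT saline libraries and higher in both WT ethanol and KO saline libraries. Rims2 had the same order, at 25.0 to 55.5 CPM in WT saline and 57.7 or more in every other library. The share of all genes with this order was not counted. Rims1, Napb and Sv2c act at different steps. Rims1 encodes RIM1, a large active zone protein that binds Rab3 and calcium channels. Napb encodes beta-SNAP, a brain form of the adaptor by which NSF takes apart SNARE complexes. Sv2c has been named above. Sequences are given for these 3 genes because their ethanol effects differed between KO and WT mice at an edgeR adjusted p under 0.30. No promoter was held for Rims2. The 250 bases before the annotated start of each of the 3 genes are shown, with each GC box (GGGCGG, either strand) in capitals. They are from the RefSeq annotation of GRCm38.p6, all on the minus strand, at chr1:22806159-22806408 for Rims1, chr2:148732421-148732670 for Napb and chr13:96132578-96132827 for Sv2c.
Rims1: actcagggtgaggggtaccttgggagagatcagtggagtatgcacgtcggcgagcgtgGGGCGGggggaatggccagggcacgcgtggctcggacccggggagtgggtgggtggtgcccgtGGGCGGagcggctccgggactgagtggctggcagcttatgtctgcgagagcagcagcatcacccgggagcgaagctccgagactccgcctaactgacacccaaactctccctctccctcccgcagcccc
Napb: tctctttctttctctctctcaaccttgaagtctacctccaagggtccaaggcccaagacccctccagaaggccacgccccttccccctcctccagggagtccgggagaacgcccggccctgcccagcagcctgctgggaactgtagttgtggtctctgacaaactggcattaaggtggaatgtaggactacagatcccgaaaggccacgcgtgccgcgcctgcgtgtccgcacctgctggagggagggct
Sv2c: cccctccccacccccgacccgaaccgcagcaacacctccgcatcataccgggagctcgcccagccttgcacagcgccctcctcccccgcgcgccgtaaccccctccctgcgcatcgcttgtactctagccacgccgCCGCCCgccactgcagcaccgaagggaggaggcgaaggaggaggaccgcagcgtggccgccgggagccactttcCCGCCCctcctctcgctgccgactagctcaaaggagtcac
The Rims1 window held 2 GC boxes, the Sv2c window 2 and the Napb window 0, and none of the 3 held the cAMP response element (TGACGTCA) or an E-box (CACGTG). Of 32851 RefSeq promoters, 32.7% held a GC box, 1.55% the cAMP response element and 6.02% an E-box. Among the 40 promoters of the 30 listed genes that the table held, the shares were 50%, 5% and 10%. The 5% is 2 promoters. The median GC content was 60% in these 40 promoters and 52.4% in all promoters, and its part in the shares was not tested. The start site used for Rims1 is 434 bases upstream of the first base of Rims1 in the deposited annotation, while those of Napb and Sv2c coincide with it. These are matches of letters and not measured sites.

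Rims1 was at 7.20, 4.04 and 8.02 CPM in WT saline, at 50.8, 29.5 and 36.97 in WT ethanol, at 42.2, 35.3 and 36.2 in KO saline and at 18.4, 30.4 and 30.8 in KO ethanol libraries. The WT saline libraries did not overlap with any of the other 9, and the lowest of those 9 is the library labelled KO ethanol replicate 1, with 11 Rims1 counts. The gene spans chr1:22288422-22805724 in mm10. Ethanol was associated with a log2 fold change of 2.61 in WT mice (standard error 0.40, 3 libraries per group), for which the edgeR quasi-likelihood test gave an adjusted p of 0.030. KO saline exceeded WT saline by 2.56 on the log2 scale (standard error 0.39, with an edgeR adjusted p of 0.038). Rims1 thus rose in these 2 comparisons, which share the WT saline libraries. In KO ethanol versus KO saline it was -0.47 (standard error 0.37, adjusted p = 0.999 in edgeR), and the difference between the ethanol effects in KO and WT mice was -3.08 (standard error 0.54, unadjusted p = 4.47e-05, adjusted p = 0.140 in edgeR). An exact permutation test of 3 against 3 libraries gave p = 0.1 for both comparisons with WT saline, the smallest it can give.

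The unadjusted p of Rims1 stayed under 0.05 in 23 of 23 alternative fits of each comparison with WT saline, but its adjusted p was under 0.05 in 10 of 23. When single libraries were dropped, 1 at a time, the adjusted p (edgeR) ran from 0.0132 to 0.119 in WT ethanol and from 0.0147 to 0.195 in KO saline versus WT saline. It stayed under 0.05 in the first comparison only without WT saline replicate 1, WT ethanol replicate 2 or the library labelled KO ethanol replicate 1, and in the second only without WT saline replicate 1, WT ethanol replicate 1 or the library labelled KO ethanol replicate 1. When each library's trend with transcript length was removed, the log2 fold changes were 1.85 (unadjusted p = 0.000102, adjusted p = 0.105) and 1.78 (unadjusted p = 0.000143, adjusted p = 0.112) in edgeR.

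Rims1 is listed as 6 transcript rows, of which 3 carry the same values in every library. All 6 were higher in WT ethanol and in KO saline than in WT saline, with log2 fold changes of 1.73 to 4.25 in the first comparison and 1.74 to 3.91 in the second. Unadjusted p was between 0.000898 and 0.0183 in WT ethanol (edgeR on transcripts), and no transcript of Rims1 had an adjusted p under 0.05. Of these transcripts, named after their values were seen, NM_001012623 was at 7.10, 2.36 and 2.49 CPM in WT saline and 14.8, 12.3 and 11.02 in WT ethanol libraries. NM_053270 was at 0.414 CPM or less in the WT saline libraries and at 9.55, 1.08 and 3.39 in the WT ethanol libraries. The rise of the sum was thus seen in every row, but the rows hold estimated counts and do not show which transcripts rose.

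Napb was at 74.6, 65.8 and 108 CPM in WT saline, at 238, 159 and 338 in WT ethanol, at 230, 266 and 147 in KO saline and at 181, 147 and 136 in KO ethanol libraries. The WT saline libraries again lay below the other 9. The gene, at chr2:148694657-148732420, had a log2 fold change of 1.56 in WT ethanol versus WT saline (standard error 0.38, adjusted p = 0.130 in edgeR) and of 1.37 in KO saline versus WT saline (standard error 0.38, adjusted p = 0.176). The difference between the ethanol effects in KO and WT mice was -2.04 (standard error 0.54, adjusted p = 0.250 in edgeR). Its paralog Napa, which encodes alpha-SNAP, was at 190, 127 and 186 CPM in WT saline, 126, 136 and 135 in WT ethanol, 108, 90.4 and 165 in KO saline and 289, 151 and 148 in KO ethanol libraries. The Napa libraries overlapped between KO saline and KO ethanol (log2 fold change 0.68, standard error 0.37, unadjusted p = 0.0851 in edgeR) and between WT saline and WT ethanol (log2 fold change -0.34, standard error 0.37). Reads shared by the 2 paralogs could have been divided between them by the authors' quantification, and this was not tested.

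Sv2c was at 2.57, 1.29 and 2.90 CPM in WT saline, at 11.6, 8.78 and 7.41 in WT ethanol, at 7.46, 7.20 and 6.71 in KO saline and at 3.34, 3.63 and 6.09 in KO ethanol libraries. WT saline lay below the other groups and KO ethanol lay between WT saline and the remaining groups, without overlap. These values rest on few counts, 5, 7 and 39 in the WT saline libraries and 2 in the library labelled KO ethanol replicate 1. The log2 fold change of Sv2c, at chr13:95959443-96132577, was 2.03 in WT ethanol versus WT saline (standard error 0.49, adjusted p = 0.130 in edgeR) and 1.65 in KO saline versus WT saline (standard error 0.48, adjusted p = 0.176). The difference between the ethanol effects in KO and WT mice was -2.66 (standard error 0.67, adjusted p = 0.250 in edgeR). Under KO ethanol versus WT ethanol the value was -1.01 (standard error 0.47, unadjusted p = 0.0489), which reached this level in 5 of 22 alternatives.

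**Figure D2:**
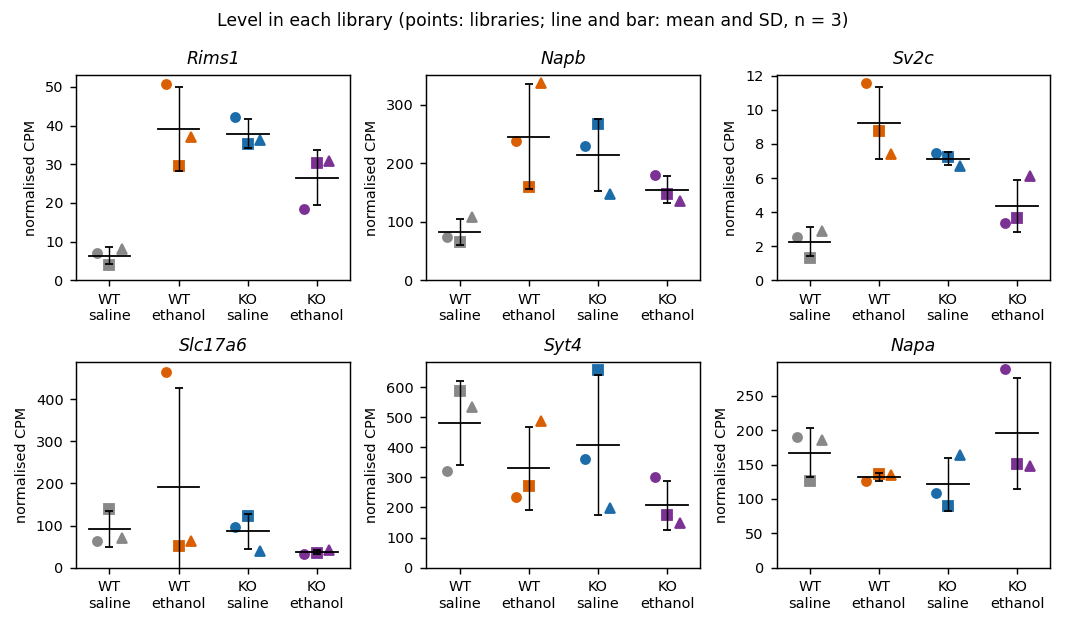
Normalised CPM of 6 of the genes described in full, with 1 point per library, a line at the group mean and a bar of 1 SD (n = 3 per group). The 3 WT saline points of Rims1, Napb and Sv2c lie below all other points, and the Slc17a6 panel is set by 1 WT ethanol library at 463 (its SD bar is cut at 0).

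Slc17a6 encodes VGLUT2, the vesicular glutamate transporter of thalamic and subcortical neurons. It was at 64.3, 140 and 70.0 CPM in WT saline, at 463, 50.9 and 63.1 in WT ethanol, at 97.6, 122 and 38.6 in KO saline and at 33.4, 35.0 and 42.3 in KO ethanol libraries. The 463 belongs to WT ethanol replicate 1, the library with the high thalamus markers, and without it the other WT ethanol libraries lie within the range of KO saline. The log2 fold change in KO ethanol versus WT ethanol was -2.37 (standard error 0.73, unadjusted p = 0.00582, adjusted p = 0.982 in edgeR) with that library and -0.60 (standard error 0.49, unadjusted p = 0.239) without it. The interaction likewise went from -2.28 (unadjusted p = 0.0375) to -0.48 (unadjusted p = 0.476 in edgeR) on the log2 scale. In KO ethanol versus KO saline the value was -1.21 (standard error 0.71, unadjusted p = 0.111 in edgeR), and -1.18 (standard error 0.45, unadjusted p = 0.0197, adjusted p = 0.999) when WT ethanol replicate 1 was left out of the common fit. Slc17a7, which encodes the cortical transporter VGLUT1, had a mean of 464 ± 385 CPM in WT saline and 291 ± 184 in WT ethanol libraries (SD, n = 3 per group), and its log2 fold changes lay between -0.67 and 0.30 with unadjusted p above 0.05.

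Ethanol versus saline in WT mice gave an unadjusted p under 0.05 in 5 of the 37 genes (13.5%), all 5 higher after ethanol. Among all 14739 genes tested the share was 18.3%, with 9.99% higher and 8.36% lower. An adjusted p under 0.30, the level of the study, was reached by 6 of the 37 (22.5% of all genes), and an adjusted p under 0.05 in this edgeR fit by Rims1 alone of the 37 (0.0746% of all genes). Other members reached an adjusted p under 0.05 in some alternatives. These were Napb in 3 of 23, Sv2c in 4 of 22, Rims2, Unc13a, Dnm1 and Bsn in 3 of 23 each, and Cplx2 and Synj1 in 2 of 23 each. The median log2 fold change was 0.14 over the 37 and 0.06 over all genes. The share of 13.5% lies below that of all genes in the count fit, whereas on the deposited RPKM (limma on log2(RPKM + 1)) 10 of the 37 reached the unadjusted level and 11.7% of all genes did, so that the standing of the list depended on the scale. All 37 had passed the filter on low counts.

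Of the 5 active zone genes, 2 were at the unadjusted level, with a median log2 fold change of 0.91. Besides Rims1, Rims2 (RIM2) was at 55.5, 33.8 and 25.0 CPM in WT saline and at 77.6, 77.1 and 57.7 in WT ethanol libraries, without overlap (log2 fold change 0.91, standard error 0.33, adjusted p = 0.214 in edgeR). Unc13a, the priming factor Munc13-1, was at 171, 21.5 and 63.6 CPM in WT saline and 212, 172 and 168 in WT ethanol libraries, which overlapped (log2 fold change 1.12, standard error 0.61). Bsn and Pclo, the giant scaffold proteins bassoon and piccolo, had log2 fold changes of 0.67 and 0.30 with unadjusted p of 0.246 and 0.362.

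Among 10 SNARE and disassembly genes, Napb was the one at an unadjusted p under 0.05. Nsf, the ATPase of disassembly, was at 205, 133 and 286 CPM in WT saline and 383, 305 and 348 in WT ethanol libraries (log2 fold change 0.73, standard error 0.36, unadjusted p = 0.0628 in edgeR). The core SNARE genes did not pass, with log2 fold changes of -0.12 for Snap25, -0.31 for Vamp2 and -0.18 for Stx1a (standard errors 0.45, 0.45 and 0.47). On the deposited RPKM (limma on log2(RPKM + 0.1)) they were 0.61, 0.77 and 0.29, each with an unadjusted p above 0.05. Their direction thus depended on the scale. From the counts, Vamp3, Vamp4, Snap29 and Napa lay between -0.34 and 0.17, and Vamp1 was 1.19 (standard error 0.64, unadjusted p = 0.0830).

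Of the 5 synaptotagmins and complexins (Syt1, Syt4, Syt11, Cplx1, Cplx2) 0 passed an unadjusted p of 0.05, and their median log2 fold change was -0.17. Among 8 vesicle proteins only Sv2c passed it. Sv2a, Sv2b, Syn1, Syn3 and Syp had log2 fold changes between -0.19 and 0.14, Syn2 0.68 (standard error 0.39) and Rab3a, the small GTPase of vesicles, -0.57 (standard error 0.41). In Rab3a the 3 WT ethanol libraries (309 to 418 CPM) lay below the 3 WT saline libraries (492 to 636) even though its p did not pass.

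Of 7 endocytosis genes, Synj1 reached the unadjusted level. It encodes synaptojanin, the phosphatase that uncoats vesicles, and was at 147, 95.5 and 74.9 CPM in WT saline and 261, 159 and 193 in WT ethanol libraries (log2 fold change 0.96, standard error 0.35, unadjusted p = 0.0159, adjusted p = 0.214 in edgeR). Amph, Bin1, Dnm1 and the endophilin genes Sh3gl1, Sh3gl2 and Sh3gl3 lay between -0.55 and 0.99 on the log2 scale, each with an unadjusted p above 0.05.

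**Figure D3:**
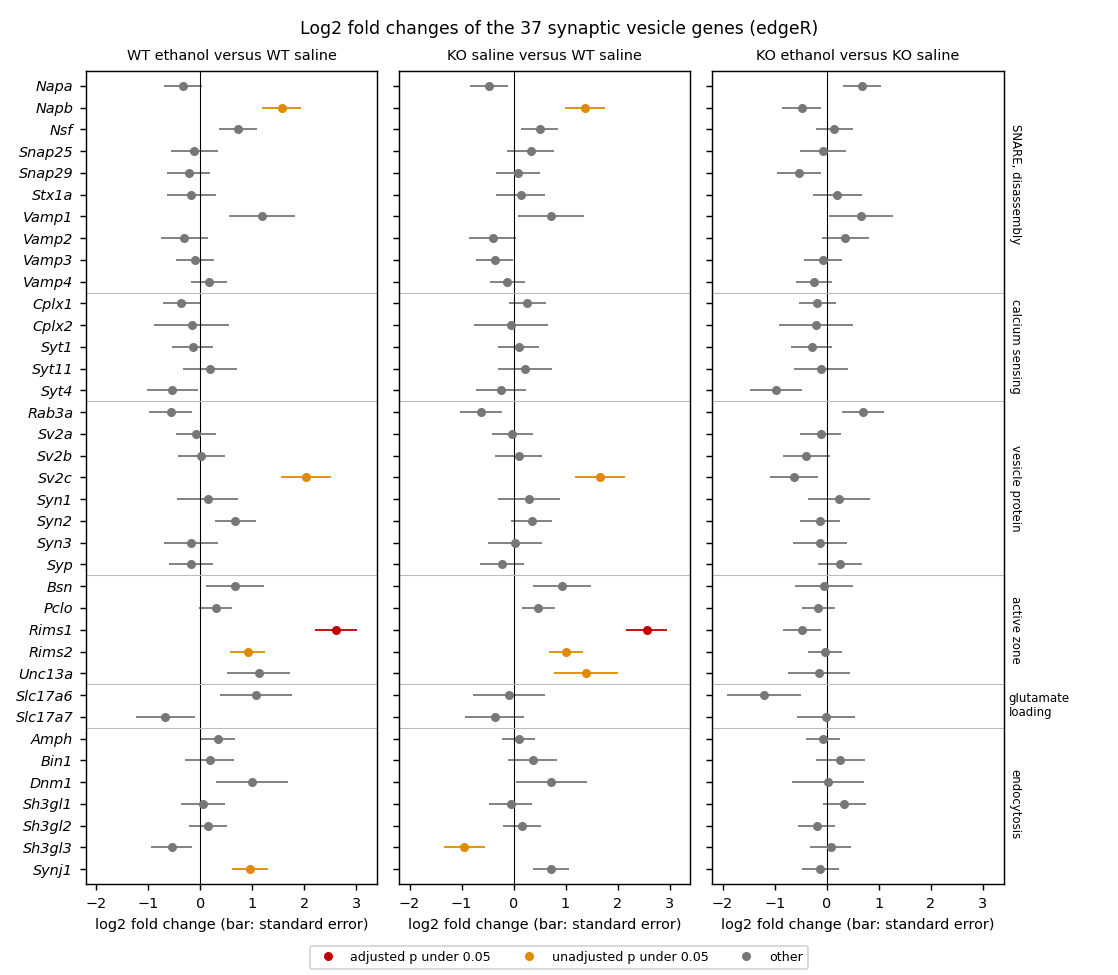
Log2 fold changes (points) with standard errors (bars) of the 37 genes in WT ethanol versus WT saline, KO saline versus WT saline and KO ethanol versus KO saline, in rows by role. Rims1 has an adjusted p under 0.05 in the first 2 panels, and the third has 0 genes at an unadjusted p under 0.05.

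In KO mice, ethanol versus saline gave an unadjusted p under 0.05 in 0 of the 37 genes and an adjusted p under 0.05 in 0 (edgeR). DESeq2 gave 0 at both levels, while limma voom with library weights gave 15 at the unadjusted level, where 34.3% of all genes passed, and 6 at an adjusted p under 0.05. For voom the share of all genes at that adjusted level is not given. Of all genes 3.15% reached the unadjusted level, 1.15% higher and 2.01% lower. The smallest p belonged to Syt4, a synaptotagmin that does not trigger fast release, which was at 363, 657 and 199 CPM in KO saline and 301, 174 and 149 in KO ethanol libraries (log2 fold change -0.97, standard error 0.49, unadjusted p = 0.0682, adjusted p = 0.999 in edgeR). Its KO libraries overlapped, as did its WT libraries, at 322, 587 and 533 CPM in WT saline and 234, 270 and 489 in WT ethanol. Napa and Slc17a6, next by p, have been given above. The median log2 fold change was -0.11 over the 37 and 0.01 over all genes. Without the library labelled KO ethanol replicate 1, 2 genes passed (Syt4 and Vamp1, with 1.83% of all genes), and without KO saline replicate 3, 3 did (7.60% of all genes).

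KO saline versus WT saline gave an unadjusted p under 0.05 in 6 of the 37 genes, 5 higher and 1 lower in KO mice. Of all genes 19.6% passed, 9.14% higher and 10.5% lower. An adjusted p under 0.30 was found for 7 of the 37 (25.8% of all genes) and an adjusted p under 0.05 for Rims1 (0.0543% of all genes). The median log2 fold change was 0.14 over the 37 and 0.04 over all genes. The share of 16.2% was below that of all genes in the count fit, and on the deposited RPKM 12 of the 37 reached the unadjusted level (12.2% of all genes).

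Rims1, Napb and Sv2c passed, as did Rims2 (log2 fold change 1.01, standard error 0.33, unadjusted p = 0.00905 in edgeR) with 72.5, 77.2 and 77.8 CPM in KO saline libraries, and Unc13a (1.39, standard error 0.61, unadjusted p = 0.0394) with 215, 152 and 298. The 5 active zone genes had a median log2 fold change of 1.01. With the length trend removed Rims2 was at 0.49 (unadjusted p = 0.211 in edgeR) and Unc13a at 0.58 (unadjusted p = 0.275), and Rims1 alone of these 5 was at the unadjusted level. Sh3gl3, the endophilin A3 gene, was the 1 lower gene, at 54.5, 120 and 85.2 CPM in WT saline and 39.3, 60.6 and 35.4 in KO saline libraries, which overlapped (log2 fold change -0.94, standard error 0.39, unadjusted p = 0.0289 in edgeR). Synj1 was 0.71 (standard error 0.35, unadjusted p = 0.0591), with 169, 161 and 188 CPM in KO saline libraries, all above the WT saline libraries. The synaptotagmins and complexins had 0 of 5 genes at this level, and the glutamate transporters 0 of 2. Since the WT saline libraries serve in this comparison and in WT ethanol versus WT saline, the likeness of the 2 sets of values is not independent evidence.

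KO ethanol versus WT ethanol gave an unadjusted p under 0.05 in 2 of the 37 genes, both lower in KO mice (Slc17a6 and Sv2c, above). Of all genes 3.24% passed, 0.977% higher and 2.26% lower. Without WT ethanol replicate 1 the count was 0 of 37 (1.84% of all genes). The median log2 fold change of the 37 was -0.05 and that of all genes was -0.03.

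The Genotype x Treatment interaction, which is the ethanol log2 fold change in KO minus that in WT mice, had an unadjusted p under 0.05 in 6 of the 37 genes (15.2% of all genes). Of these 1 was positive (7.5% of all genes) and 5 were negative (7.67% of all genes). An adjusted p under 0.30 was reached by Rims1, Sv2c and Napb (11.1% of all genes), and an adjusted p under 0.05 by 0 of the 37. DESeq2 gave 7 genes at the unadjusted level (17.1% of all genes in that fit) and 3 at an adjusted p under 0.05. For DESeq2 the share of all genes at that adjusted level is not given. The negative genes were Rims1, Napb, Sv2c, Slc17a6 and Synj1 (-1.08, standard error 0.49, unadjusted p = 0.0459 in edgeR). With the length trend removed the interaction of Synj1 was 0.24 (unadjusted p = 0.641 in edgeR). The positive gene was Rab3a (1.26, standard error 0.58, unadjusted p = 0.0457), at 349, 236 and 489 CPM in KO saline and 859, 453 and 431 in KO ethanol libraries, where the 859 is from the library labelled KO ethanol replicate 1. The median interaction was -0.30 over the 37 and -0.11 over all genes. Without WT ethanol replicate 1 the count was 3 (Rims1, Napb and Sv2c, with 10.7% of all genes), and it was 3 also without the library labelled KO ethanol replicate 1 (9.87% of all genes).

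The counts were sensitive to WT saline replicate 1, the shallowest WT saline library and 1 of 2 whose name opens with L. Without it the unadjusted level was reached by 11 genes in WT ethanol versus WT saline (31.7% of all genes in that fit), by 12 in KO saline versus WT saline (33.6%) and by 10 in the interaction (23.6%). Bsn, Cplx2, Dnm1 and Unc13a were then among the genes at this level in all 3. Without both libraries named with L the counts were 12, 15 and 10, with 37.3%, 39.2% and 21.4% of all genes. Rims1, Napb and Sv2c were at this level in all 3 comparisons whichever single library was left out.

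Log2 fold changes followed transcript length. Over the 37 genes, Spearman's rho between log2 fold change and length was 0.60 in WT ethanol versus WT saline, 0.59 in KO saline versus WT saline and -0.56 in KO ethanol versus KO saline. Over the 14581 tested genes with a length it was 0.48, 0.55 and -0.48. These are descriptions over genes of the same 12 libraries, which are not independent. The 13 longest of the 37 (4334 bases or more) had a median log2 fold change of 0.67 in WT ethanol versus WT saline and included all 5 genes at the unadjusted level, while the 13 shortest (2591 bases or less) had a median of -0.18 and 0 genes at this level. In KO ethanol versus KO saline the medians were -0.17 and 0.21. When the length trend of each library was removed, 3 genes remained at the unadjusted level in WT ethanol versus WT saline (Rims1, Napb and Sv2c) and 1 in KO saline versus WT saline (Rims1), and Synj1 went from 0.96 to 0.18 and Rims2 from 0.91 to 0.40 in the first of these.

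**Figure D4:**
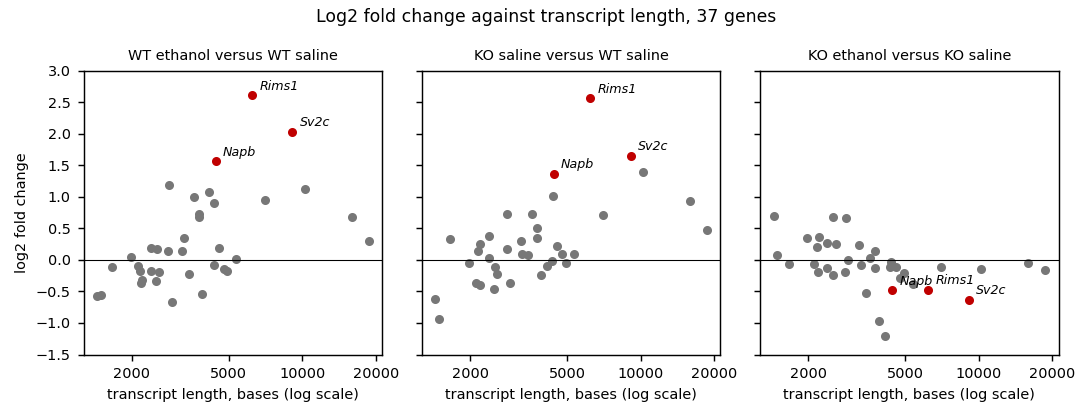
Log2 fold change of the 37 genes against transcript length in bases (log scale), in WT ethanol versus WT saline, KO saline versus WT saline and KO ethanol versus KO saline. Values are higher for longer transcripts in the first 2 panels (rho 0.60 and 0.59) and lower in the third (rho -0.56), with Rims1, Napb and Sv2c marked in red.

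The study also lists Syp as changed after ethanol, in a targeted RNA-Seq of dissected subregions that is not part of these data. Sh3gl2 and Syt1 were examined because the study names them among the changed genes of whole somatosensory cortex. They gave different pictures in the counts and in the deposited RPKM. Sh3gl2 encodes endophilin A1, which bends membrane and recruits synaptojanin and dynamin, and lies at chr4:85205456-85389379. From the counts it was at 208, 319 and 262 CPM in WT saline, 223, 252 and 397 in WT ethanol, 282, 327 and 275 in KO saline and 339, 217 and 221 in KO ethanol libraries. The groups overlapped throughout, and the log2 fold changes were 0.14 (standard error 0.36) in WT ethanol versus WT saline, 0.16 (0.36) in KO saline versus WT saline and -0.19 (0.36) in KO ethanol versus KO saline, with unadjusted p from 0.602 to 0.696 in edgeR. In RPKM it was at 63.8, 56.2 and 61.6 in WT saline, 94.8, 88.5 and 120 in WT ethanol, 114, 111 and 107 in KO saline and 78.7, 87.8 and 86.4 in KO ethanol libraries. On that scale WT saline lay below all other groups, and KO ethanol lay below KO saline and WT ethanol, without overlap. By limma on log2(RPKM + 1) the difference was 0.72 (standard error 0.22, unadjusted p = 0.00652, adjusted p = 0.296) in WT ethanol versus WT saline and 0.86 (standard error 0.22, unadjusted p = 0.00190, adjusted p = 0.240) in KO saline versus WT saline, and the interaction was -1.11 (standard error 0.32, unadjusted p = 0.00369, adjusted p = 0.343).

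Syt1, at chr10:108497650-109010975, encodes synaptotagmin-1, the calcium sensor of fast release. It was at 1023, 1029 and 993 CPM in WT saline, 660, 912 and 1177 in WT ethanol, 1099, 1205 and 958 in KO saline and 1133, 781 and 764 in KO ethanol libraries, so that all groups overlapped. The log2 fold changes were -0.15 (standard error 0.40) in WT ethanol versus WT saline, 0.10 (0.40) in KO saline versus WT saline and -0.29 (0.40) in KO ethanol versus KO saline, each with an unadjusted p above 0.05 in edgeR. In RPKM it was at 182, 121 and 142 in WT saline, 154, 190 and 207 in WT ethanol, 260, 242 and 212 in KO saline and 162, 179 and 171 in KO ethanol libraries. KO saline was there above both WT saline (0.69 on the log2(RPKM + 1) scale, standard error 0.25, unadjusted p = 0.0150, adjusted p = 0.328 in limma) and KO ethanol, without overlap. The deposited RPKM have nearly the same sorted values in every library, as a quantile normalization gives, and CPM do not. With limma on log2(RPKM + 1), 10 of the 37 genes had an unadjusted p under 0.05 in WT ethanol versus WT saline (11.7% of all genes) and 12 in KO saline versus WT saline (12.2% of all genes), compared with 5 and 6 from the counts. The members' median differences were 0.63 and 0.61 on that scale, compared with 0.01 for all genes in each.

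**Figure D5:**
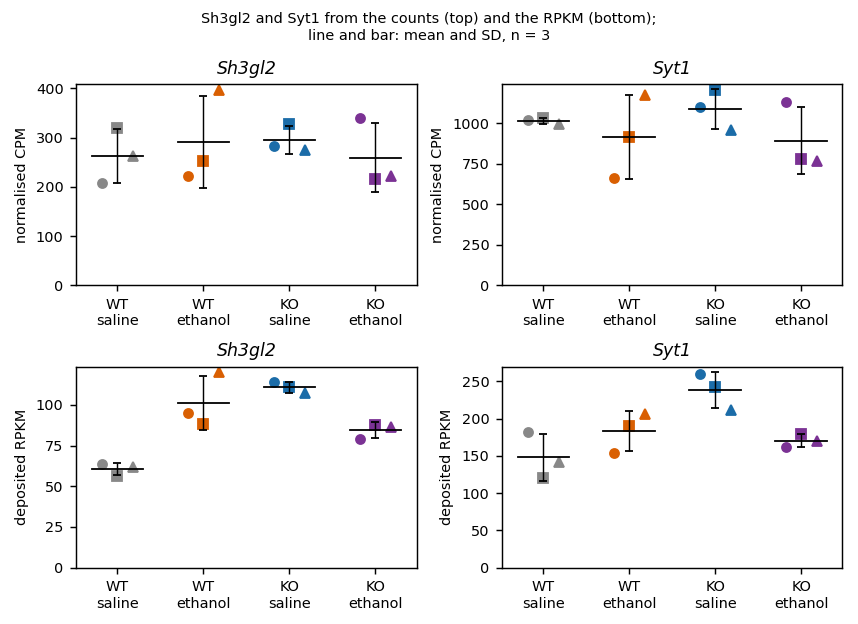
Sh3gl2 and Syt1 in each library as normalised CPM from the counts (top) and as deposited RPKM (bottom), with a line at the group mean and a bar of 1 SD (n = 3 per group). For Sh3gl2 the WT saline points lie between 208 and 319 CPM, within the other groups, but between 56.2 and 63.8 RPKM, below all other points.

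The transcripts of the 37 genes were also tested one by one. In WT ethanol versus WT saline 18 of 64 had an unadjusted p under 0.05 (18.2% of all 21715 transcripts tested), 14 of them higher, and in KO saline versus WT saline 17 of 64 (19.1% of all transcripts), 14 of them higher. The share of all transcripts that passed and were higher was not counted, so the 14 in each do not show a direction particular to the list. The 18 belong to 12 genes and the 17 to 11, so that these rows are not independent. The 18 include every Rims1 row, some of which carry the same values in every library. An adjusted p under 0.05 was reached by 0 of the 64 in either comparison (edgeR). In 0 of the 18 genes with more than 1 transcript did transcripts pass in opposite directions. A transcript of Vamp1, a vesicle SNARE of fast brainstem and spinal synapses, was singled out after its values were seen. NM_001080557 held 0.193 estimated counts or less in each WT saline library and was at 9.61, 10.8 and 7.14 CPM in WT ethanol and at 6.72, 0.0109 and 13.6 in KO saline libraries. The other Vamp1 transcript, NM_009496, was at 11.8, 10.5 and 13.7 CPM in WT saline and at 24.2, 18.3 and 12.1 in WT ethanol libraries, so that nearly all WT saline counts of the gene were assigned to it.

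A further 92 genes of the vesicle cycle, not on the list of 37, were counted from a hand-written list, and 91 passed the filter. In WT ethanol versus WT saline 15 of 91 (16.5%, compared with 18.3% of all genes) had an unadjusted p under 0.05, 13 of them higher, and in KO saline versus WT saline 14 (15.4%, compared with 19.6%), 9 of them higher. The counts were 2 in KO ethanol versus KO saline (2.20%, compared with 3.15%), 4 in KO ethanol versus WT ethanol (4.40%, compared with 3.24%) and 13 in the interaction (14.3%, compared with 15.2%), 9 of these negative. An adjusted p under 0.05 was reached by 0 genes in each of the 5 tests (edgeR). Their median log2 fold changes were 0.28, 0.20, -0.09, -0.16 and -0.47 in the same order.

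The smallest p among these genes in WT ethanol versus WT saline belonged to Syt17 and Rims3. Rims3, a short RIM of the active zone, was at 1.03, 1.10 and 4.83 CPM in WT saline and 20.4, 7.90 and 10.7 in WT ethanol libraries (log2 fold change 2.33, standard error 0.69, adjusted p = 0.185 in edgeR). These values rest on few counts, and the 1.03 lies below the level of 3 counts in WT saline replicate 1, which is 1.54 CPM. Syt17 was at 4.11, 3.67 and 6.24 CPM in WT saline and 32.0, 4.22 and 29.4 in WT ethanol libraries, which overlapped (log2 fold change 2.20, standard error 0.62, adjusted p = 0.180). In the interaction the smallest p belonged to Ap2s1, Rims3 and Ppfia2. Ap2s1, the small subunit of the clathrin adaptor AP-2, had the opposite sign, at 431, 440 and 407 CPM in WT saline, 148, 192 and 240 in WT ethanol, 175, 128 and 215 in KO saline and 615, 204 and 217 in KO ethanol libraries (interaction 2.13, standard error 0.63, adjusted p = 0.250 in edgeR). Its 3 WT saline libraries lay above all others except the library labelled KO ethanol replicate 1. Rims3 had an interaction of -3.08 (standard error 0.96) and Ppfia2, a liprin of the active zone, of -1.77 (standard error 0.59), both with an adjusted p of 0.250.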

How the data were processed

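Per the labels and the study's methods, the authors sequenced stranded total RNA, removed reads below a quality limit and mapped the rest to mm10 (TopHat, which runs Bowtie2). Partek Flow then gave a value for each RefSeq transcript. Part of the tissue was taken by laser microdissection and part by punch, which the labels do not assign to libraries. The deposited files hold, per transcript and library, estimated counts and RPKM as the authors computed them. Library totals were 719735 to 17066392 counts, and the level of 3 counts named for Rims3 covers counting error only.

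Counts were summed per gene symbol, rounded and fitted across the 4 groups with the quasi-likelihood test of edgeR 4.0.16 (R 4.3.3) with TMM factors, filterByExpr (14739 genes) and Benjamini-Hochberg adjustment over all genes. Standard errors were derived from the F statistic. The test was checked on simulated data. Alternatives used DESeq2 1.42.0, limma 3.58.1 on log2 RPKM with a pseudocount of 1 or 0.1, voom, other scalings and filters, a removed length trend, and left-out libraries. Nothing says which mice were littermates, so p-values measure the spread between these samples.

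Values in every library are given for Sh3gl2 and Syt1, for the 3 genes with the smallest p in each of 5 contrasts and for each with an adjusted p under 0.05. The members and lists were chosen with earlier results of these data known. Promoters were from the RefSeq table of GRCm38.p6, which held 30 of the 37 genes. Motif matches and figures used Python 3.11.15 and matplotlib 3.10.9. A result for 1 further gene of the vesicle cycle is not reported here.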

Additional observations from a re-analysis of the deposited data

Results flagged for a closer look

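The ethanol effect differed between KO and WT mice, by an interaction term with an edgeR adjusted p under 0.30, for 3 of the 37 genes, while 11.1% of all genes reached that level. The difference (KO minus WT, log2) was -3.08 for Rims1 (adjusted p = 0.140 in edgeR), -2.66 for Sv2c (adjusted p = 0.250) and -2.04 for Napb (adjusted p = 0.250). With the length trend removed it was -1.91 for Rims1 (unadjusted p = 0.00149, adjusted p = 0.509 in edgeR), -1.39 for Sv2c (unadjusted p = 0.0539, adjusted p = 0.643) and -1.02 for Napb (unadjusted p = 0.126, adjusted p = 0.684), so that none kept the adjusted level. The WT saline libraries, which enter each of these values, had the shortest count-weighted mean transcript length of the 4 groups apart from the library labelled KO ethanol replicate 1, and the part of this in the differences was not tested further.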

How the results depend on the processing

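The number of the 37 genes at an unadjusted p under 0.05 depended on the setting. The share of all genes in the same fit stands in parentheses. In WT ethanol versus WT saline it was 11 without TMM (20.3%), 10 with limma on log2(RPKM + 1) (11.7%), 10 with a pseudocount of 0.1 (11.1%), 11 with voom weights (30.3%), 12 without the 2 libraries named with L (37.3%) and 3 with the length trend removed (12.8%). In KO ethanol versus KO saline it was 15 with voom (34.3%), 2 without the L libraries (4.03%), and 1 without TMM, with at least 10 counts in every library, with each RPKM pseudocount, with only the 2 groups fitted and with the length trend removed (1.22% to 4.44%). In KO saline versus WT saline it was 12 with the RPKM pseudocounts of 1 and 0.1 (12.2% and 11.5%), 16 with voom (42.6%), 15 without the L libraries (39.2%) and 1 with the length trend removed (11.3%). In KO ethanol versus WT ethanol it was 6 with voom (18.9%), and 1 without TMM, with the DESeq2 size factors, with either other filter, without the L libraries, with 2 groups and with the length trend removed (2.42% to 6.35%). In the interaction it was 14 with voom (29.0%), 10 without the L libraries (21.4%) and 2 with the length trend removed (7.77%). At an adjusted p under 0.05, voom called 8, 6, 13, 0 and 6 of the 37 in the same order. The share of all genes at that adjusted level is not given, so these counts do not show the standing of the list. With each library left out in turn the counts ran from 4 to 11, 0 to 3, 4 to 12, 0 to 2 and 3 to 10 in the same order. The causes were not tested. Without TMM the median of all genes moved to 0.49 in WT ethanol versus WT saline.

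Changes of direction occurred for Sh3gl2 and Syt1, neither of which passed in the edgeR fit of the report. From counts, Sh3gl2 passed the unadjusted level in KO saline versus WT saline without TMM, Syt1 in KO ethanol versus KO saline with voom, and the Syt1 transcript NM_001252342 in WT ethanol versus WT saline. For Sh3gl2, removing the length trend gave -0.10 in WT ethanol versus WT saline, 0.098 in KO ethanol versus KO saline, -0.072 in KO saline versus WT saline, 0.13 in KO ethanol versus WT ethanol and 0.20 in the interaction, and omitting the L libraries gave -0.078 and -0.046 in the comparisons with WT saline. Single left-out libraries gave -0.15 to 0.29 in WT ethanol versus WT saline, -0.0093 to 0.31 in KO saline versus WT saline and -0.41 to 0.12 in KO ethanol versus WT ethanol. For Syt1, WT ethanol versus WT saline was 0.27 without TMM, 0.31 and 0.32 with the RPKM pseudocounts of 1 and 0.1, 0.22 for NM_001252341 and 0.13 for NM_009306. Removing the length trend gave Syt1 values of 0.32 in KO ethanol versus KO saline, -0.51 in KO saline versus WT saline, 0.50 in KO ethanol versus WT ethanol and 1.01 in the interaction. The transcript NM_001252342 gave -0.85, 0.012 and 0.86 in the last 3 of these, and KO ethanol versus WT ethanol was 0.019 with DESeq2 and 0.021 with its size factors. Single left-out libraries gave Syt1 values of -0.37 to 0.029 in WT ethanol versus WT saline, -0.25 to 0.18 in KO ethanol versus WT ethanol and -0.35 to 0.081 in the interaction. Over all alternatives for Sh3gl2, Syt1 and the other genes described in full in contrasts where their unadjusted p was under 0.05, 461 values kept their direction and side of the threshold, 36 lost and 13 gained significance at the unadjusted level, and 33 changed direction.

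No paired analysis was possible because replicate numbers only follow the order of the samples.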
